A study of Mus musculus with 8 samples.

Results

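Connexins are the subunits of gap junctions, and 4 connexin genes of the epidermis were followed here: Gjb2 (connexin 26), Gjb6 (connexin 30), Gjb5 (connexin 31.1) and Gja1 (connexin 43). The members were all probe sets whose only gene symbol in the platform annotation is 1 of these, which gave 4 of 12394 genes and 9 of the 22690 probe sets on the array: 1 each for Gjb2, Gjb6 and Gjb5 and 6 for Gja1. The data were 8 oligonucleotide arrays of whole skin from newborn FVB mice. There were 4 genotypes with 2 arrays each: pRb-/-;p53-/- (double_null), pRb+/+;p53-/- (p53_null), pRb-/-;p53+/+ (pRb_null) and control. Each array carried RNA pooled from 3 animals. The series title places the inactivation in stratified epithelia, which make up only some of the tissue sampled. The labels used here do not name the promoter that drove the deletion. Since nothing in the labels tells whether both arrays of a group came from different animals, a p-value here speaks only of array-to-array spread, and that may be technical.

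Connexins assemble in hexamers in the cell membrane and dock with those of a neighbouring cell, so that ions and small metabolites pass between cells. In epidermis the connexins are layered. Gja1 is the widely expressed connexin of the basal and lower spinous layers and is also made by fibroblasts, vessels and muscle. Gjb2 and Gjb6 are prominent in the hair follicle and are induced in hyperproliferative epidermis, and mutations in their human counterparts cause deafness and skin disease. Gjb5 is made mainly by keratinocytes.

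Each probe set was deposited as a score that had been centred and scaled across the 8 arrays to mean 0 and SD 1. Every difference below is therefore in SD units of that probe set. The labels do not tell whether logarithms were taken before that scaling, so an SD unit may be of log or of linear signal. Neither levels nor fold changes can be given, probe sets cannot be ranked by abundance, and the presence of skin markers cannot be checked. Differences were fitted on all 22690 probe sets with limma, using each probe set's own variance, and a probe set was called at an adjusted p under 0.05 (Benjamini-Hochberg over all probe sets). Each error after ± is the standard error of that fit. The number of arrays limits the precision.

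Gjb2 and Gjb6 are next to each other on mouse chromosome 14, with Gja3 on the other side of Gjb2. Gjb5 is on chromosome 4, and Gja1 on chromosome 10 has no connexin among its 3 nearest protein-coding genes on either side. The promoter windows of the 3 beta connexins are shown because all 3 had lower mean scores in p53_null than in control. Each is 300 bases of RefSeq, build GRCm38.p6, minus strand, from 250 bases before to 50 bases after the annotated start. They are chr14:57104653-57104952 for Gjb2, chr14:57133562-57133861 for Gjb6 and chr4:127358115-127358414 for Gjb5. Capitals mark GC boxes in Gjb2, p53 half-sites in Gjb6, and TATAAA and CCAAT in Gjb5.
Gjb2: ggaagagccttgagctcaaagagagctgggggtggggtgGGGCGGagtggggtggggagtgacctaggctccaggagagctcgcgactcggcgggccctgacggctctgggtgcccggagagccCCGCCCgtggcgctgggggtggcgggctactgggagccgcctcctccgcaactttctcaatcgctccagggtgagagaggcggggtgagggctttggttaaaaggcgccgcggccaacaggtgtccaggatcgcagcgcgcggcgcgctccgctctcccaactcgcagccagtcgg
Gjb6: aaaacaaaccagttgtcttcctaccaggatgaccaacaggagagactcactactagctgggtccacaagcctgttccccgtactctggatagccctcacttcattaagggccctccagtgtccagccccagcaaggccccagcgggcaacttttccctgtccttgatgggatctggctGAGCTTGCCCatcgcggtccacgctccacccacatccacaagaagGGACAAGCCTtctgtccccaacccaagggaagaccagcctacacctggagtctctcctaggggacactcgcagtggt
Gjb5: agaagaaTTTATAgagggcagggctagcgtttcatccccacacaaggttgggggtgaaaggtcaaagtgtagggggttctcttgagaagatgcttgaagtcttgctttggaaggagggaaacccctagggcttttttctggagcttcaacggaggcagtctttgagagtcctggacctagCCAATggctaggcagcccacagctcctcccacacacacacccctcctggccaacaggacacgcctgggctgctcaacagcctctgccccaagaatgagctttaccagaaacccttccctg

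The search covered both strands for TATAAA of the TATA box, GGGCGG of the GC box, CCAAT and TGANTCA of the AP-1 site. It also covered the p53 half-site of 10 bases, which is only a part of a full p53 site. These motifs were picked with results known. No marked stretches overlapped. The Gjb2 window held 2 GC boxes, starting 211 and 126 bases before the start, and 35.7% of the 32851 promoter windows in the table held at least 1. The Gjb6 window held 2 matches to the p53 half-site, starting 72 and 27 bases before the start and thus not adjacent. Of all windows, 8.4% held at least 1 such match and 0.36% held 2 or more, at any spacing. The Gjb5 window held CCAAT at 70 bases before the start, as 37.4% of windows did, and TATAAA on the other strand at 243 bases before it, as 13.6% did. The Gja1 window held 1 AP-1 site, 19 bases before the start, which 7.8% of windows held. Gjb2 had the window richest in G and C, at 70.0%, against 57.3% for Gjb6, 54.3% for Gjb5, 47.7% for Gja1 and a median of 52.7% over all windows. These are matches of letters in a window. They do not show binding.

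The beta connexins Gjb2 and Gjb6 scored lower in both genotypes without p53. The average p53 effect, the mean of p53_null minus control and double_null minus pRb_null, was -1.74 ± 0.14 for Gjb2 (adjusted p = 0.034) and -1.68 ± 0.07 for Gjb6 (adjusted p = 0.019), so both fell. These were 2 of the 9 member probe sets, where 1.26% of all probe sets were called. For both genes all 4 arrays without p53 were below all 4 arrays with p53, which held for 8.14% of all probe sets. In whole skin, fewer cells of a type and less RNA per cell cannot be told apart.

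Gjb2 scored -1.45 and -1.0 in double_null, -0.45 and -0.57 in p53_null, 0.44 and 0.76 in pRb_null, and 1.12 and 1.15 in control. The 4 genotypes did not overlap and stood in the order double_null, p53_null, pRb_null, control, from low to high. How many of all probe sets keep the 4 genotypes apart was not counted, so this only describes the scores. The difference of double_null from control was -2.37 ± 0.20 (adjusted p = 0.040), so Gjb2 fell. The difference of p53_null from control was -1.65 ± 0.20 (adjusted p = 0.10) and that of double_null from pRb_null -1.83 ± 0.20 (adjusted p = 0.075), and neither passed. The steps between neighbours in the order were smaller: double_null minus p53_null was -0.72 ± 0.20 (adjusted p = 0.34), p53_null minus pRb_null -1.11 ± 0.20 (adjusted p = 0.15) and pRb_null minus control -0.54 ± 0.20 (adjusted p = 0.48), with a 95% interval for the last from -1.10 to 0.02.

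Gjb6, the neighbour of Gjb2, scored -0.29 and -0.30 in double_null, -1.25 and -1.51 in p53_null, 0.98 and 1.08 in pRb_null, and 0.66 and 0.63 in control. Its genotypes did not overlap either, again without a count over all probe sets, but the lowest was p53_null and not double_null. Gjb6 fell in p53_null, with a difference from control of -2.03 ± 0.10 (adjusted p = 0.039) and from pRb_null of -2.41 ± 0.10 (adjusted p = 0.041). It also fell in double_null relative to pRb_null, by 1.33 ± 0.10 (adjusted p = 0.048). The difference of double_null from control was -0.94 ± 0.10 (adjusted p = 0.061). The difference of double_null from p53_null was 1.09 ± 0.10 (adjusted p = 0.12), and that of pRb_null from control was 0.39 ± 0.10 (adjusted p = 0.36).

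Gjb5 scored -0.28 and 0.37 in double_null, -1.51 and -1.46 in p53_null, 1.07 and 0.29 in pRb_null, and 0.83 and 0.70 in control. Both p53_null arrays were below every other array, and double_null overlapped pRb_null. No difference of Gjb5 passed: p53_null minus control was -2.24 ± 0.36 (adjusted p = 0.14), double_null minus p53_null 1.52 ± 0.36 (adjusted p = 0.30) and the average p53 effect -1.44 ± 0.26 (adjusted p = 0.095). For double_null minus control the value was -0.72 ± 0.36 (adjusted p = 0.38), with a 95% interval from -1.72 to 0.29.

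**Figure D1:**
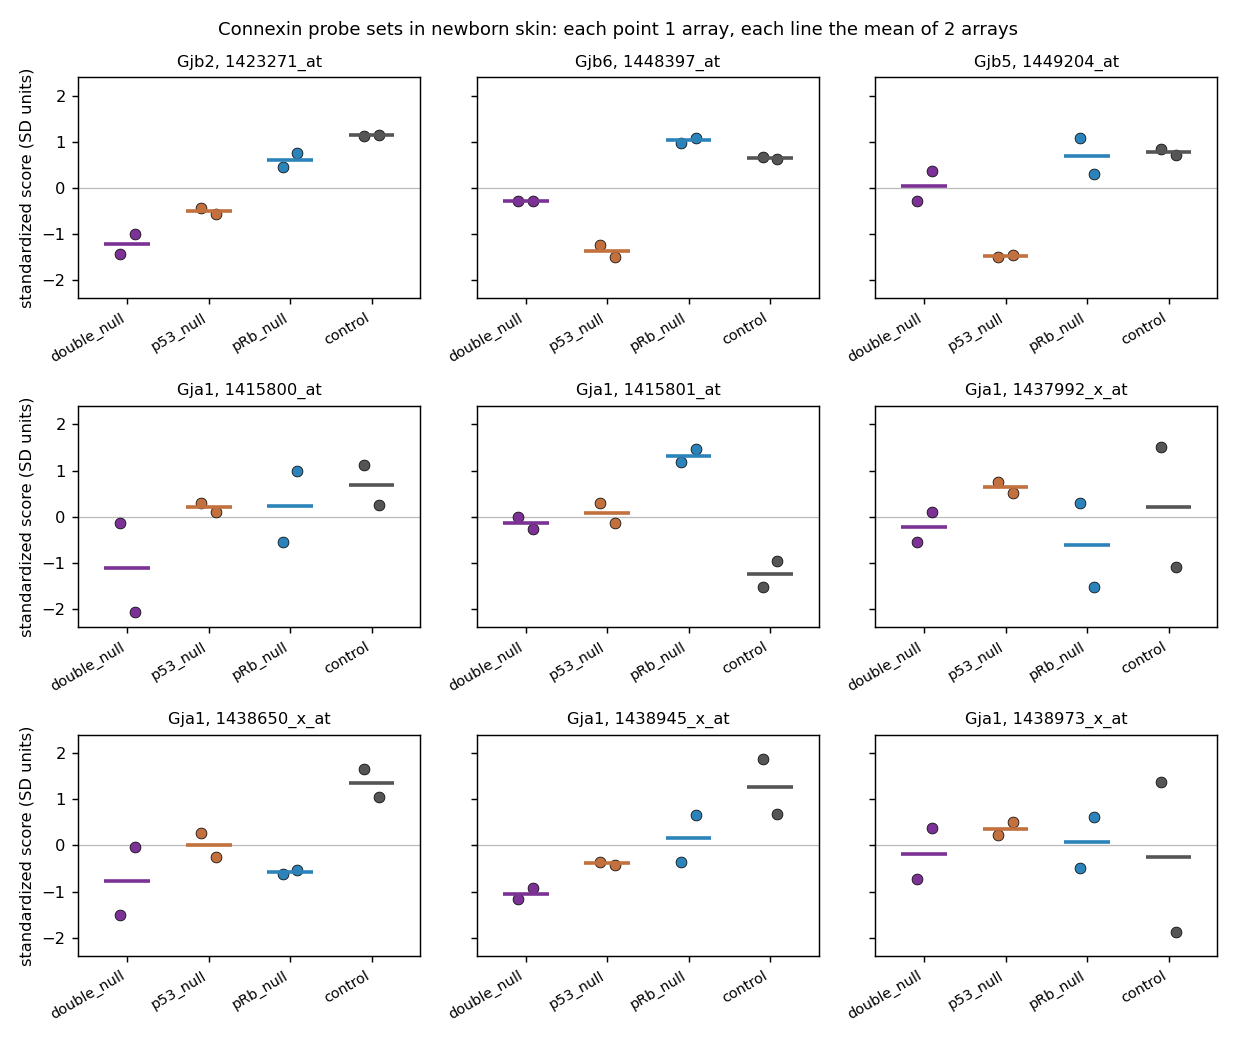
Standardized score (vertical axis, SD units) of the 9 connexin probe sets in double_null, p53_null, pRb_null and control skin; points are arrays and lines are means of 2 arrays. Gjb2 and Gjb6 have all arrays without p53 below 0 and all arrays with p53 above 0, Gjb5 is lowest in p53_null, and the 6 Gja1 probe sets differ from each other.

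Whether loss of pRb changed the effect of p53 loss was tested by the interaction, (double_null minus pRb_null) minus (p53_null minus control). It was 0.70 ± 0.14 for Gjb6 (adjusted p = 0.32), 1.61 ± 0.51 for Gjb5 (adjusted p = 0.43) and -0.18 ± 0.28 for Gjb2 (adjusted p = 0.86). None of the 9 members passed, and 0% of all probe sets did; at an unadjusted p under 0.05 there were 3 members and 2377 probe sets (10.5%), and limma's moderated test also called 0. The average pRb effect, the mean of pRb_null minus control and double_null minus p53_null, was 0.74 ± 0.07 for Gjb6 (adjusted p = 0.12), 0.72 ± 0.26 for Gjb5 (adjusted p = 0.38) and -0.63 ± 0.14 for Gjb2 (adjusted p = 0.26). No member was called there, where 0.00441% of all probe sets were. Gjb2 thus had a sign opposite to that of Gjb6 and Gjb5, without a call for any of them.

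Gja1, the connexin of the basal layer and of many dermal cells, gave no agreed picture, because its 6 probe sets did not vary together. Over the 8 arrays the 15 pairwise correlations ran from -0.70 to 0.78 with a median of 0.18, and 6 were below 0. The probe sets 1415800_at and 1415801_at have the same source sequence in the annotation and had r = -0.07. The other 4 carry the suffix _x_at, which marks probes that may also match other transcripts, and are uncertain for that reason.

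For 1415801_at the scores were -0.02 and -0.28 in double_null, 0.29 and -0.14 in p53_null, 1.18 and 1.47 in pRb_null, and -1.52 and -0.97 in control. The control arrays were lowest and the pRb_null arrays highest, while double_null and p53_null overlapped. The difference from control was 1.10 ± 0.28 in double_null (adjusted p = 0.18), 1.32 ± 0.28 in p53_null (adjusted p = 0.20) and 2.57 ± 0.28 in pRb_null (adjusted p = 0.18). The interaction was -2.80 ± 0.40 (adjusted p = 0.26).

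Probe set 1438945_x_at ran the other way, with -1.16 and -0.93 in double_null, -0.35 and -0.43 in p53_null, -0.35 and 0.66 in pRb_null, and 1.87 and 0.68 in control. Its double_null arrays were lowest and its control arrays highest, and p53_null overlapped pRb_null. The difference of double_null from control was -2.31 ± 0.56 (adjusted p = 0.16), and the average p53 effect was -1.43 ± 0.39 (adjusted p = 0.16). For 1438650_x_at, the scores were -1.52 and -0.04 in double_null, 0.28 and -0.26 in p53_null, -0.63 and -0.53 in pRb_null and 1.66 and 1.05 in control. Control stood above the mutants, which overlapped in part, and the difference of double_null from control was -2.14 ± 0.60 (adjusted p = 0.19). The remaining probe sets, 1415800_at, 1437992_x_at and 1438973_x_at, had within-genotype SDs of 0.93, 1.15 and 1.28, close to or above the SD of 1 over all arrays. The 2 control arrays of 1438973_x_at lay at 1.37 and -1.88, and no comparison of these 3 had an unadjusted p under 0.05.

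**Figure D2:**
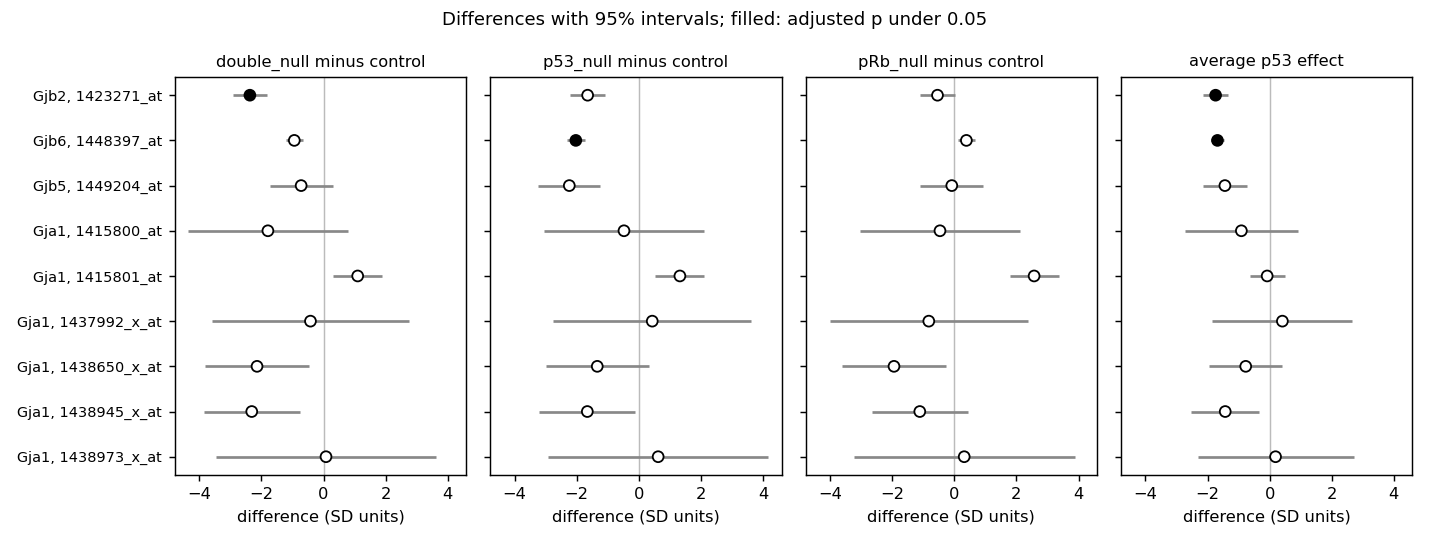
Difference (horizontal axis, SD units) of each connexin probe set in 4 comparisons, with the 95% interval of the fit on 8 arrays; filled points have an adjusted p under 0.05. The filled points are Gjb2 in double_null minus control, Gjb6 in p53_null minus control, and both in the average p53 effect; the Gja1 points lie on both sides of 0.

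Over the 9 members, double_null minus control had 1 call, a lower score, against 0.846% of all probe sets, and a median of -0.94 beside -0.01 over all. At an unadjusted p under 0.05, 4 members were lower and 1 higher, where 18.7% of all probe sets passed in either direction. In p53_null minus control there was 1 lower call (0.119% of all), and 4 members were lower and 1 higher at the unadjusted bound (14.6% of all), with a median of -1.34 beside -0.15. In pRb_null minus control no member was called (0% of all, by the moderated test too), and 1 was lower and 2 higher at the unadjusted bound, which 2416 probe sets passed (10.6% of all). These comparisons share the control arrays, and 6 of the 9 values come from Gja1, so the members are not independent.

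Between mutants, double_null minus pRb_null had 1 lower call (0.405% of all) and 3 lower members at the unadjusted bound (18.6% of all). In double_null minus p53_null no member was called (0.0353% of all), and 1 was lower and 2 higher at the unadjusted bound (11.9% of all). In p53_null minus pRb_null 1 member was called lower (0.0573% of all) and 4 were lower at the unadjusted bound (16.2% of all), with a median over all probe sets of -0.26. At that bound the average p53 effect had 4 lower members (22.1% of all) and the average pRb effect 2 lower and 3 higher (12.9% of all).

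Among the members, Gjb6 and Gjb5 were most alike, with r = 0.91 over the 8 arrays, and Gjb2 and Gjb6 had r = 0.70. Gjb2 had r = 0.89 with 1438945_x_at of Gja1 and r = -0.13 with 1415801_at. These values describe 8 arrays that fall into 4 genotypes and carry no test.

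**Figure D3:**
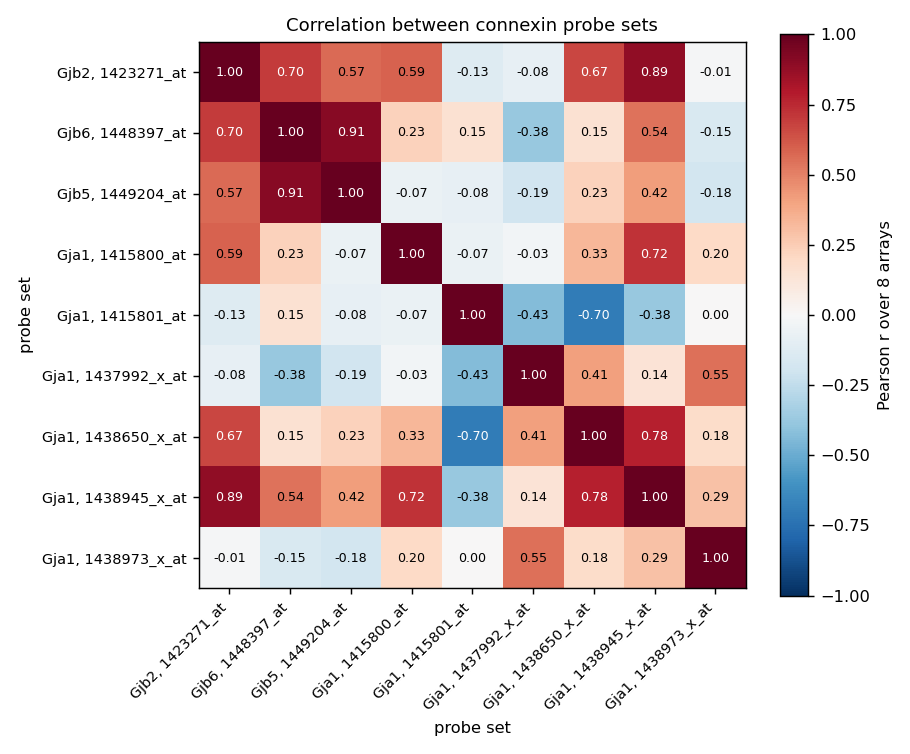
Pearson r over 8 arrays between the 9 connexin probe sets, red for positive and blue for negative. Gjb6 and Gjb5 share r = 0.91, whereas the Gja1 probe sets run from -0.70 to 0.78 among themselves.

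The genes with the most similar patterns were looked up among 12393 other genes, again over the 8 arrays. Being picked as the highest, these r are large by selection and carry no test. Even the Gja1 probe set 1438973_x_at, with a within-genotype SD of 1.28, had a neighbour at r = 0.946. Those nearest to Gjb2 were the adhesion receptor Adgrg1 (r = 0.996), Padi3 (r = 0.994), a peptidylarginine deiminase of hair follicle and upper epidermis, the hair keratin-associated gene Krtap13-1 and Psors1c2 (r = 0.992 each). Padi3 scored -1.53 and -1.08 in double_null, -0.43 and -0.39 in p53_null, 0.60 and 0.66 in pRb_null, and 1.07 and 1.11 in control. Nearest to Gjb6 were Hr (r = 0.981), the hairless corepressor of hair cycling, the AP-1 subunit Junb (r = 0.979), the kinase Riok3 (r = 0.978) and Atm (r = 0.972), a kinase of the DNA damage response. Nearest to Gjb5 were Zdhhc14, Ccdc191, Tmem106a and Otub2, with r from 0.975 to 0.982.

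The Gja1 probe sets had different neighbours. Nearest to 1415801_at were an array control probe set for Gapdh (r = 0.983), Slc25a13 (r = 0.980), the muscle creatine kinase Ckm (r = 0.973) and Pmpca (r = 0.972). Nearest to 1438945_x_at were Nucks1, Gpnmb, the epithelial cadherin Cdh1 and Nisch, with r from 0.968 to 0.977, and nearest to 1415800_at were Rps20, Etf1, Top2b and Npm1, with r from 0.961 to 0.995. For 1438650_x_at these were Hdac11, Hnrnpa1, Neu3 and Pofut2 (0.940 to 0.965), for 1437992_x_at Lasp1, Ddx5, Htra3 and Myl12a (0.922 to 0.936), and for 1438973_x_at Amot, Eif4b, Muc15 and Lasp1 (0.928 to 0.946).

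Marker lists of cell types moved with some of these patterns, and their part in the connexin results was not tested. The 18 measured hair follicle markers had a mean score of -1.45 and -1.02 in double_null, -0.26 and -0.20 in p53_null, 0.67 and 0.57 in pRb_null, and 0.81 and 0.89 in control, the genotype order of Gjb2. Of these markers 11 fell in the average p53 effect and 0 rose, where 1.26% of all probe sets were called. Their median was -1.63 beside -0.13 over all. Among those that fell were the shaft keratin Krt35 (-1.67 ± 0.07, adjusted p = 0.019) and the follicle homeobox gene Msx2 (-1.67 ± 0.10, adjusted p = 0.026). The 11 stress and wound keratinocyte markers had mean scores of 0.92 and 0.97 in double_null, -0.81 and -0.60 in p53_null, 0.21 and 0.07 in pRb_null and -0.64 and -0.13 in control. Of them 4 rose in double_null relative to control, where 0.846% of all probe sets were called. These were S100a8 (2.23 ± 0.08, adjusted p = 0.017), Krt16 (2.28 ± 0.14, adjusted p = 0.032), Il1f9 (2.56 ± 0.16, adjusted p = 0.032) and Sprr2d (2.35 ± 0.20, adjusted p = 0.040), while Krt17 was at -1.95 ± 0.54 (adjusted p = 0.19). The same double_null arrays had the lowest Gjb2 scores.

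The 13 suprabasal markers had mean scores of 0.88 and 0.05 in double_null, -0.51 and -0.43 in p53_null, 0.19 and 0.37 in pRb_null, and -0.34 and -0.22 in control. Like Gjb6 and Gjb5 they were lowest in p53_null, but control came next and was close. Their median in p53_null minus control was -0.21 beside -0.15 over all probe sets. None was called there, and 3 were lower and 0 higher at the unadjusted bound (14.6% of all). In double_null minus control 1 of the 13 suprabasal markers was called (0.846% of all), Krtdap (1.91 ± 0.14, adjusted p = 0.035). At the unadjusted bound 3 were higher and 1 lower, the lower being Krt2 (-1.9 ± 0.36, adjusted p = 0.12). The 10 basal markers were at -0.37 and -0.89 in double_null, 0.17 and 0.22 in p53_null, 0.17 and 0.17 in pRb_null, and -0.34 and 0.88 in control, so that the control arrays stood apart from each other. Over all probe sets, 18.7% passed the unadjusted bound in double_null minus control in either direction, with a median of -0.01. Of the markers of cells outside the epidermis, the 9 endothelial markers had a median difference of 1.43 in that comparison, with 5 higher and none lower by unadjusted p. The 8 fibroblast markers had one of 1.14, with 1 higher and 2 lower. The 5 smooth muscle markers had a median of -0.32, with 1 lower and 0 higher, and the 8 skeletal muscle markers of -0.36, with 2 higher and 1 lower, and there was no call in these 4 lists in that comparison. Myeloid (9 genes, median 1.57) and adipocyte markers (5 genes, median 0.74) had 4 and 3 higher and 0 lower at that bound in the same comparison. Where Gjb6 fell in p53_null, adipocyte markers were low too, without a call: their mean scores were 0.90 and 0.63 in double_null, -1.30 and -1.48 in p53_null, 0.69 and 0.83 in pRb_null, and -0.26 and -0.01 in control. Their median was -1.33 in p53_null minus control (-0.15 over all), with 4 of 5 lower at the unadjusted bound (14.6% of all). In p53_null minus pRb_null it was -2.18 (-0.26 over all), with 5 of 5 lower (16.2% of all). In double_null minus pRb_null, where Gjb6 also fell, it was -0.14 (-0.15 over all), with 1 higher and 0 lower (18.6% of all).

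**Figure D4:**
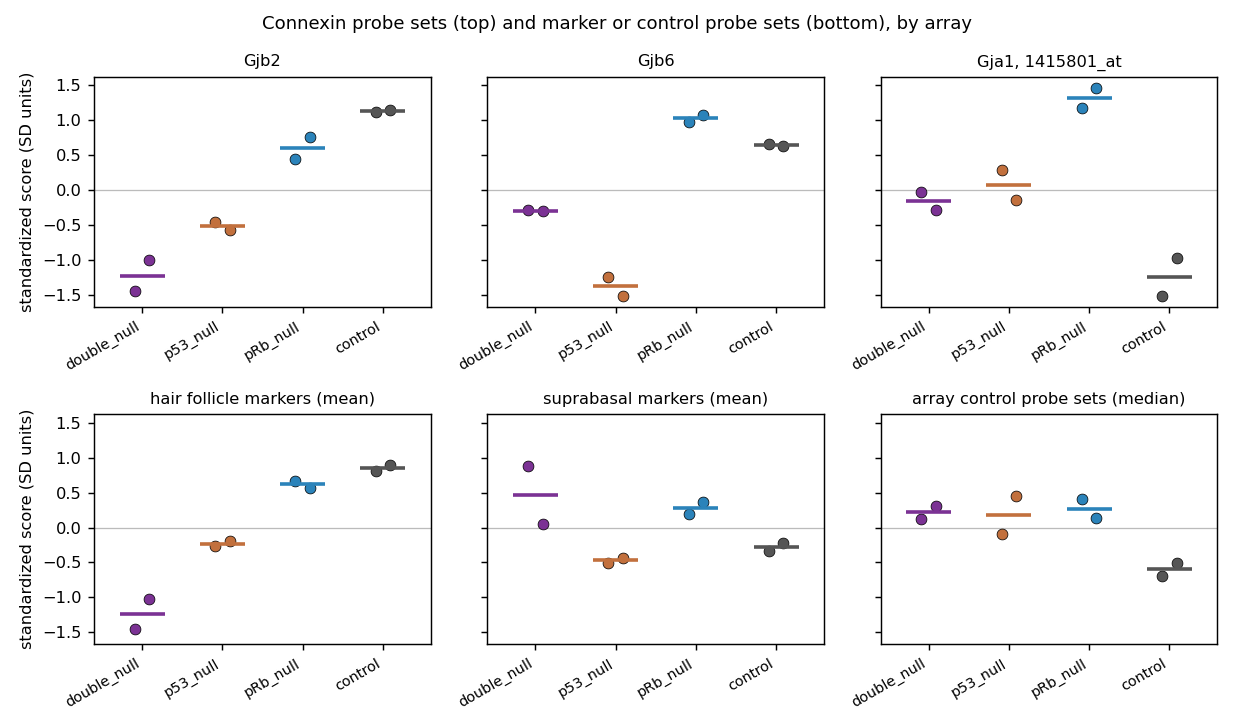
Scores by array (vertical axis, SD units) of Gjb2, Gjb6 and the Gja1 probe set 1415801_at (top) and of hair follicle markers, suprabasal markers (means) and array control probe sets (median, bottom); points are arrays, lines are means of 2 arrays. Gjb2 and the follicle markers share the genotype order, and the control arrays are lowest both for 1415801_at and for the array control probe sets.

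The arrays themselves differed in their array control probe sets, and this runs with every comparison against control. Some of these, such as that for Gapdh, measure mouse transcripts, and they were not counted apart from the others. Whether the difference is technical was not tested. The median score over all probe sets also differed, from -0.161 in double_null replicate 1 to 0.229 in pRb_null replicate 1. Of the 64 array control probe sets, 20 (31.2%) had both control arrays below all 6 mutant arrays, against 7.0% of all probe sets. Their median score was 0.123 and 0.313 in double_null, -0.091 and 0.446 in p53_null, 0.404 and 0.135 in pRb_null, and -0.689 and -0.509 in control. The Gja1 probe set 1415801_at was low in the same control arrays, and Gjb2 and Gjb6 were high there. Over all probe sets, r within a genotype was 0.118 to 0.337, and across genotypes it was at most 0.093. No batch is named in the labels.

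The remaining connexin family gave no call. Of 16 other connexins 9 were measured, plus 1 pannexin, and in no comparison did a member of these lists pass. In the average p53 effect 2 of the 9 were lower and 0 higher at the unadjusted bound, a share near the 22.1% of all probe sets: Gja10 (-1.11 ± 0.27, adjusted p = 0.14) and Gjd4 (-1.58 ± 0.40, adjusted p = 0.15). Gja3, the gene beside Gjb2 and best known from the lens, scored -0.99 and -0.99 in double_null, -0.66 and -0.07 in p53_null, 1.09 and 1.21 in pRb_null, and -0.76 and 1.17 in control, with control arrays at opposite ends. The gap junction subunit of vessels and heart Gjc1 was highest in p53_null, at 1.67 and 1.33, against -0.71 and 0.22 in control (1.74 ± 0.44, adjusted p = 0.24).

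Genes that bind or regulate connexins were counted in the same way. Of 27 such genes 22 were measured; none was called in the average p53 effect, and 6 were lower and 2 higher at the unadjusted bound, where 22.1% of all probe sets passed, with a median of -0.50 beside -0.13 over all. Those with the smallest p were Grhl1 (-1.67 ± 0.25, adjusted p = 0.077), a transcription factor of hair anchorage and epidermal differentiation, the ubiquitin ligase Nedd4 (1.55 ± 0.23, adjusted p = 0.077), which binds connexin 43, and the epidermal transcription factor Ovol1 (-1.44 ± 0.22, adjusted p = 0.078). Cdh1, the cadherin that keratinocytes need to form gap junctions, was at -1.54 ± 0.33 (adjusted p = 0.12). Of 13 measured tight junction genes 0 were called there, and 2 were lower and 1 higher at the unadjusted bound, again near the 22.1% of all probe sets, with the smallest p for the claudins Cldn3 (-1.74 ± 0.28, adjusted p = 0.086) and Cldn4 (-1.49 ± 0.28, adjusted p = 0.10).

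The calls for Gjb2 and Gjb6 rest on all 8 arrays. With any 1 array left out none of them passed, while each difference kept its sign: Gjb2 in double_null minus control lay between -2.59 and -2.14 (adjusted p from 0.11 to 0.20), and Gjb6 in p53_null minus control between -2.16 and -1.90 (adjusted p from 0.12 to 0.26). For the average p53 effect the range was -1.85 to -1.62 for Gjb2 (adjusted p from 0.086 to 0.17) and -1.74 to -1.61 for Gjb6 (adjusted p from 0.080 to 0.11). Limma's moderated test called no member in any comparison.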

How the data were processed

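The authors' deposited score is standardized per probe set: tested on the file, each of the 22690 rows was at mean 0 with SD 1, to a tolerance of 1e-06. Per the submitters' processing notes RMA was used (version not given in the sources used here); scanner files were not used here. Platform annotation gave 20393 probe sets with 1 symbol, 691 with several and 1606 with none, and 20364 matched RefSeq by Entrez number with 0 symbols changed.

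limma 3.58.1 in R 4.3.3 fitted 1 mean per genotype on all 8 arrays (4 residual degrees of freedom), without moderation because standardized rows tie the variances together. This choice decides every call, since the moderated form called 0 probe sets in each comparison. Tables were made with Python 3.11.15 and pandas 2.3.3, figures with matplotlib 3.10.9. The members, lists, motifs and this test were chosen with earlier results of these data known, so calls are exploratory. Lists used 1 probe set per gene, by suffix (_at first) and then lowest identifier. Named were all member probe sets, the 4 most correlated genes of each, and, from the lists of other connexins, partners and tight junction genes, where none passed, the 2 with the smallest p; cell type markers are summarised by counts and means, and those named, with Gja3, Gjc1, Cdh1 and Ovol1, were named after their values were seen. No filter on dim probe sets was possible.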

Additional observations from a re-analysis of the deposited data

Results flagged for a closer look

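For the Gja1 probe set 1415801_at the effect of p53 loss had opposite signs with and without pRb: double_null minus pRb_null was -1.48, with both arrays below both pRb_null arrays, and p53_null minus control was 1.32, with both arrays above both control arrays. The test of this difference, the interaction, did not pass (-2.80 ± 0.40, adjusted p = 0.26). How many of all probe sets show such opposite signs without overlap was not counted. The array control probe sets were low in the same control arrays, and their part was not tested.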

How the results depend on the processing

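The 6 calls of members (Gjb2 in double_null minus control and in the average p53 effect, Gjb6 in that effect and in p53_null minus control, double_null minus pRb_null and p53_null minus pRb_null) kept their sign under all alternatives. The 1 probe set per gene fit kept all 6 calls, and setting array medians to 0 kept both calls in the average p53 effect and that of Gjb2 in double_null minus control and left 0 in the other comparisons. The moderated test, quantile normalization, the replicate block, only the arrays compared (where it could be run) and leaving out any 1 array left 0 members called in every comparison. The highest adjusted p over the alternatives was 0.35 for Gjb2 in double_null minus control and 0.32 for Gjb6 in p53_null minus control. Deviations of equal replicate numbers had correlations from -0.163 to 0.197, beside an r of 0.118 to 0.337 between the arrays of a genotype. Whether equal numbers share a run was not tested. With pRb_null numbers crossed, an alternative chosen after seeing the data, double_null minus pRb_null had 5 calls over all probe sets and 0 members.

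Over all probe sets the calls were 192 in double_null minus control, 27 in p53_null minus control, 0 in pRb_null minus control, 92 in double_null minus pRb_null, 8 in double_null minus p53_null, 13 in p53_null minus pRb_null, 285 and 1 in the average p53 and pRb effects and 0 in the interaction. The moderated test, the replicate block and the fit of only the arrays compared each gave 0 wherever run. Quantile normalization gave 1, 0, 0, 1, 1, 0, 17, 0 and 0 in that order. Array medians at 0 gave 5 in p53_null minus control, 4 in double_null minus p53_null, 7 in p53_null minus pRb_null and 5 in the average pRb effect. The 1 probe set per gene fit, with fewer features, gave 125, 17, 3, 5 and 6 in double_null minus control, p53_null minus control, pRb_null minus control, double_null minus p53_null and the average pRb effect. Leaving out 1 array gave 1 to 8, 0 to 5, 0 to 1, 0 to 6, 0 to 1, 0, 3 to 9, 0 to 1 and 0 to 1 in the first order.

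Of 1071 member values under alternatives 45 changed sign, none of them called. For Gja1 1438973_x_at quantile normalization gave -0.05 in double_null minus control. For 1415800_at in p53_null minus pRb_null, array medians at 0 gave 0.20 and quantile normalization 0.06; for 1415801_at in the average p53 effect both gave 0.06; for 1437992_x_at in the interaction they gave 0.04 and 0.12. With 1 array left out, Gjb5 ran from -0.47 to 0.31 in pRb_null minus control and Gjb2 from -0.41 to 0.05 in the interaction. The Gja1 probe set 1437992_x_at ran from -1.72 to 0.87 in double_null minus control, -0.87 to 1.72 in p53_null minus control, -2.12 to 0.47 in pRb_null minus control, -0.51 to 1.31 in double_null minus pRb_null, -0.23 to 1.06 in the average p53 effect and -1.32 to 1.27 in the interaction. For 1438973_x_at the ranges were -1.54 to 1.71, -1.0 to 2.24, -1.30 to 1.95 and -0.79 to 0.31 in the first 4 of these comparisons, -1.09 to 0.02 in double_null minus p53_null, -0.26 to 0.85 in p53_null minus pRb_null, -0.62 to 1.00 and -0.92 to 0.70 in the average p53 and pRb effects and -2.48 to 0.76 in the interaction. For 1415800_at they were -1.24 to 0.32 in pRb_null minus control, -0.80 to 0.75 in p53_null minus pRb_null and -1.81 to 0.11 in the interaction. For 1438650_x_at the range was -0.94 to 0.54 in double_null minus pRb_null, for 1415801_at -0.21 to 0.06 in the average p53 effect, and for 1438945_x_at -0.13 to 1.06 in the interaction. The cause was not tested. With 2 arrays a genotype and no levels, neither signal over background nor the size of a change in expression can be judged.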
